A study of Schmidtea mediterranea with 89 samples.

Results

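The 150 identifiers described here stayed near their starting level during the first day of flat culture of planarian neoblasts and had fallen by 3 days. They were chosen from 36035 transcript identifiers in the experiment that compared flat plates, U-bottom plates and a soft gel, which is called experiment 3 in the labels. Levels were expressed as CPM, the counts of a library scaled to a common total after 4 very abundant identifiers were set aside. An identifier qualified with at least 5 CPM in uncultured cells, a day 1 level within 0.5 of the uncultured level on the log2(CPM + 1) scale, and a day 3 level at least 1 lower on that scale. Of the 36035, 12104 met the first condition, 4887 of these the second and 320 of these the third, and the 150 with the most negative day 3 values were kept. The means of 9 libraries (uncultured, flat 1 day and flat 3 days) made this choice, so the levels in those libraries, and every contrast that uses one of them, are given as a description without a test.

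RNA was measured in 89 libraries of wild type SiRNeoblasts of Schmidtea mediterranea, in 5 experiments and 30 groups. All cultures had the same medium with 20% serum at 22 °C, per the labels. Experiment 3 held soft polyacrylamide, the PA gel, with a stiffness of 100 Pa, at 1, 2 and 3 days, U-bottom plates at 1 and 3 days, flat plates at 1, 2 and 3 days, and uncultured cells. Experiment 4 held cells on HFF1 feeders (human fibroblasts), on MEF feeders (mouse embryonic fibroblasts) and on flat plates at 1 and 3 days, and uncultured cells. Experiment 5 held U-bottom plates with planarian tissue extract, U-bottom plates without it and flat plates without it at 1, 3 and 7 days, and uncultured cells. Experiment 2 set AggreWell plates against flat plates at 1 day, and experiment 1 set cells in aggregates against non-aggregating cells at 2 days. There were 3 libraries to a group, and 2 for the gel at 3 days. Whether replicate libraries stem from different cultures or animals is not stated in the labels, so the p-values reflect the scatter of the libraries, part or all of which may be technical. The sources used here do not say how RNA of feeder cells or of the extract was kept apart from that of the neoblasts. In such bulk libraries, fewer cells of a kind and less RNA per cell cannot be told apart.

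Neoblasts are the dividing cells of adult planarians and the source of all other cell types in growth and regeneration. They are hard to keep alive outside the animal, where they lose the capacity to divide and to rescue an irradiated host, and the plates, gels, feeders and extract were alternative ways of keeping them. U-bottom wells and AggreWell microwells bring cells into contact with each other, and flat plates do not. The identifiers come without gene names, and none of 41 neoblast and tissue marker symbols could be matched to one. The labelled cell type could therefore not be checked against its markers, no role is given to any member, and no sequence is shown.

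Total counts per library ran from 12386601 to 25588459 in experiment 3, from 6775383 to 42691160 in experiment 4, from 3333661 to 30686937 in experiment 5, from 10566779 to 17296616 in experiment 2 and from 17293102 to 24128450 in experiment 1. The 4 abundant identifiers took between 27.0% and 84.6% of a library, which left between 1372794 counts (U-bottom 1 day replicate 1 of experiment 5) and 29438737 counts. The median count of a member was between 9.73 and 254.5 per library, so that many members were measured with few counts. In these amplified libraries no molecular identifiers are mentioned, and any floor given covers counting error only.

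In experiment 3 the loss ran through day 2 and was about as large on the third day as on the second. The median member had 12.2 CPM over the uncultured means, 10.6 CPM at 1 day and 3.52 CPM at 3 days. On the log2(CPM + 1) scale the members' median difference from uncultured cells was -0.31 at 1 day, -0.87 at 2 days and -1.51 at 3 days, with a range at 3 days of -3.98 to -1.28. The 2-day libraries took no part in the choice, though the uncultured, 1-day and 3-day libraries they are set against did. A fall over the steps from 1 to 3 days was therefore required by the choice. Its excess over other identifiers is a description only. From 1 to 2 days the median step was -0.64, against -0.06 for the 11805 identifiers of at least 5 CPM, and from 2 to 3 days it was -0.63, against -0.05. At 2 days 64 of 150 members were already at least 1 lower than in uncultured cells and 28 were still within 0.5. The means at 1, 2 and 3 days stood in falling order in 129 of 150 members.

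**Figure D1:**
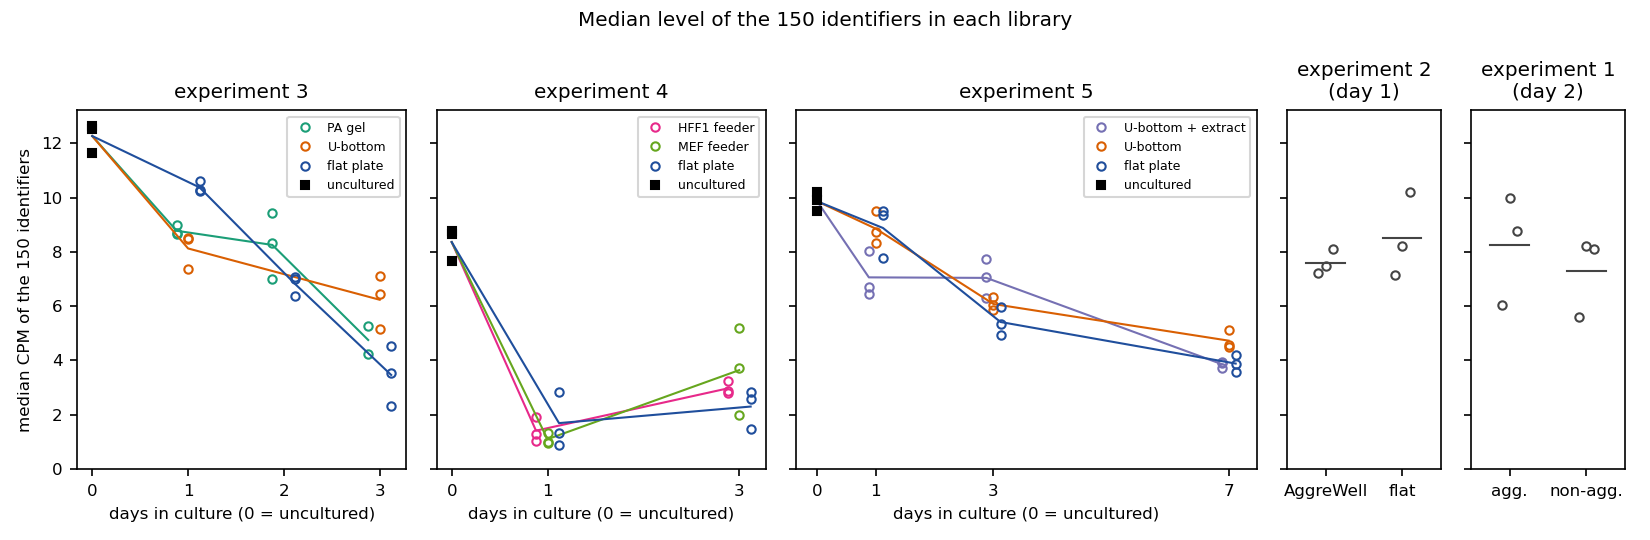
Median CPM of the 150 identifiers in each library (points) against days in culture for experiments 3, 4 and 5, with lines through group means from the uncultured libraries at day 0, and by condition for experiments 2 and 1. In experiment 3 flat libraries reach 3.47 CPM on average at 3 days, in experiment 5 they reach 5.42 CPM at 3 days and 3.89 CPM at 7 days, and in experiment 4 they are at 1.69 CPM on day 1 already.

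Even on day 1 most members were slightly down: 133 of 150 had a lower mean at 1 day than in uncultured cells and 17 a higher one. By library, the members' median was 10.3 to 10.6 CPM at 1 day, 6.38 to 7.06 CPM at 2 days and 2.31 to 4.55 CPM at 3 days, against 11.6 to 12.6 CPM in uncultured libraries. At 3 days all flat libraries were below all uncultured libraries for 148 of 150 members. The same held for 37.6% of the 12104 identifiers with at least 5 CPM uncultured. The count of members is in large part fixed by their choice.

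The members differed widely in level. In uncultured cells of experiment 3, 62 had under 10 CPM, 81 had 10 to 100 CPM and 7 had over 100 CPM, a grouping made after the levels were seen. SMED30034512, the most abundant, had 713, 731 and 683 CPM at 1 day, 316, 305 and 339 CPM at 2 days and 249, 231 and 246 CPM at 3 days, against 857, 769 and 814 CPM in uncultured cells. SMED30004367, the second, had 222, 206 and 188 CPM at 3 days, against 529, 597 and 547 CPM in uncultured cells. In both, the libraries of a group lay close together and the 3-day libraries lay below all others. The 2 members with the most negative day 3 value were much lower and less regular. SMED30031855 had 2.2, 0 and 0 CPM at 3 days, against 10.3, 15.0 and 10.8 CPM in uncultured cells. SMED30003738 had 0, 0.568 and 0 CPM at 3 days, against 0.859, 47.1 and 5.29 CPM in uncultured cells, and its day 1 libraries had 0.134, 73.5 and 0 CPM. Its place on the list rests on 1 uncultured and 1 day 1 library.

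The pace at 2 days also varied between members. SMED30012713 and SMED30018436 were the lowest at 2 days relative to uncultured cells. SMED30012713 had 0.899, 1.77 and 2.6 CPM at 2 days, against 12.2, 15.6 and 12.7 CPM uncultured, and SMED30018436 had 3.15, 1.03 and 1.3 CPM, against 8.04, 15.8 and 14.4 CPM. Their means at 3 days were no lower than at 2 days, with 2.51 CPM for SMED30012713 and 4.43 CPM for SMED30018436. SMED30002021 and SMED30013580 were the highest at 2 days. SMED30002021 had 6.52, 8.18 and 4.59 CPM at 2 days, against 3.24, 6.61 and 5.76 CPM uncultured, and 1.38, 1.12 and 1.32 CPM at 3 days. SMED30013580 owed its place to 50.0 CPM in 1 library of the 2-day group, whose other libraries had 0.693 and 0.224 CPM.

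At the edge of the choice, SMED30010027 was the last identifier kept, with a day 3 value of -1.28102, and SMED30008563 the first not kept, with -1.2806. The lowest uncultured level kept was 5.20 CPM (SMED30002021) and the highest not kept 4.98 CPM (SMED30021716). The largest day 1 difference kept was -0.495 (SMED30013342) and the smallest not kept -0.501 (SMED30010086). With library scaling by the trimmed mean of M values (TMM) in place of plain CPM, 78 of the 150 stayed on the list, and 78 stayed with group medians in place of means.

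The other cultures of experiment 3 share no library with the choice when their days are compared with each other. Their fit also held the libraries of the choice, which entered the scaling and the estimate of the spread. On the PA gel the members were lower at 3 days than at 1 day. The median log2 fold change of the 150 was -0.65, against -0.07 over all 20949 identifiers tested. Here and below, all identifiers tested include those below the 5 CPM that the choice required of members. Of the members 133 (88.7%) lay below 0, against 54.7% of all. By edgeR's quasi-likelihood test, adjusted over all identifiers tested with a threshold of 0.05 as in all counts here, 8 of 150 members fell (5.33%) and 0 rose, where 0.468% of all identifiers were called lower. Before adjustment, p was under 0.05 for 39 members in the lower direction and 1 in the higher. It was under 0.05 for 2048 of the 20949 identifiers in either direction. DESeq2 called 16 members lower and 0 higher, and 242 of all identifiers lower and 201 higher. SMED30032446 had 4.98 and 6.40 CPM at 3 days on the gel, against 27.0, 21.5 and 28.0 CPM at 1 day (log2 fold change -2.04, SE 0.39, adjusted p = 0.00611). SMED30021549 had 0.916 and 4.2 CPM, against 18.1, 15.5 and 15.5 CPM (-2.58, SE 0.65, adjusted p = 0.0489). The 3-day libraries lay below all 1-day libraries in both members. With 1 library left out, the call of SMED30032446 was lost in 1 of 5 fits and that of SMED30021549 in 4 of 5. The count of members called lower was 1 without gel 3 days replicate 1, 4 without its replicate 2, and 6, 3 and 5 without gel 1 day replicate 1, 2 or 3.

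In U-bottom plates of experiment 3 the members were also lower at 3 days than at 1 day. The median log2 fold change was -0.44, against 0.03 over all identifiers, and 107 of 150 lay below 0. Here 18 members fell (12.0%) and 0 rose, where 2.53% of all identifiers were called lower. SMED30024367 had 3.35, 11.7 and 15.5 CPM at 3 days, against 71.7, 51.3 and 86.8 CPM at 1 day (log2 fold change -2.91, SE 0.41, adjusted p = 2.67e-05). SMED30021549, which also fell on the gel, had 4.05, 2.05 and 3.58 CPM at 3 days, against 13.7, 28.9 and 15.1 CPM at 1 day (-2.60, SE 0.52, adjusted p = 0.00251). Leaving out any 1 library left between 13 and 23 members called lower, and fitting the compared groups alone left 7.

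Set against the uncultured and flat libraries, which made the choice, the gel and the U-bottom plate are described without a test. At 1 day the members' median was 8.78 ± 0.17 CPM on the gel (SD over 3 libraries), 8.13 ± 0.65 CPM in U-bottom plates and 10.4 ± 0.2 CPM on flat plates. At 3 days it was 4.25 and 5.26 CPM on the gel, 6.24 ± 1.00 CPM in U-bottom plates and 3.47 ± 1.12 CPM on flat plates, whose 3-day libraries had been required to be low. Members at least 1 below uncultured cells at 3 days numbered 101 (67.3%) on the gel and 71 (47.3%) in U-bottom plates, where 26.1% and 23.2% of the 12104 identifiers with at least 5 CPM uncultured were as low.

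Experiment 5 repeated flat culture with its own uncultured cells and went on to 7 days. The members lay below uncultured cells on balance at each day. Their median log2 fold changes were -0.50, -1.06 and -1.38 at 1, 3 and 7 days, against -0.11, -0.19 and 0.06 over all identifiers tested. On the log2(CPM + 1) scale the members' medians were -0.39, -0.89 and -1.26, against -0.01, -0.11 and -0.50 for the 11110 identifiers with at least 5 CPM in these uncultured cells. Of the members 13.3%, 43.3% and 58.0% were at least 1 lower on that scale at 1, 3 and 7 days, against 14.6%, 22.1% and 33.2% of the 11110. By library, their median CPM was 7.78 to 9.51 at 1 day, 4.95 to 5.96 at 3 days and 3.58 to 4.22 at 7 days, against 9.50 to 10.2 in uncultured libraries. Of the 148 members tested, 0 were called in either direction at 1 day, where 0.281% of all identifiers were called lower. Before adjustment, p was under 0.05 for 6 members that were lower and 2 that were higher. It was under 0.05 for 2615 of all 24174 identifiers in either direction. DESeq2 called 3 members lower and 0 higher, and 460 of all identifiers lower and 238 higher. With edgeR, 1 member was called lower without flat 1 day replicate 1.

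At 3 days 8 of 148 members fell relative to uncultured cells (5.41%) and 0 rose, where 1.46% of all identifiers were called lower. SMED30008911 had 151, 215 and 266 CPM at 3 days, against 818, 872 and 889 CPM in uncultured cells (log2 fold change -2.08, SE 0.36, adjusted p = 0.00026). SMED30033848 had 10.6, 21.0 and 53.0 CPM, against 129, 164 and 158 CPM (-2.46, SE 0.56, adjusted p = 0.00656). The flat libraries lay below every uncultured one in both. The call of SMED30033848 was lost without flat 3 days replicate 1 or 2. Without uncultured replicate 3 the count was 5, and without any other single library of the 2 groups it was between 6 and 8.

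At 7 days 22 of 148 members fell (14.9%) and 3 rose, where 3.79% of all identifiers were called lower and 6.41% higher. SMED30032032 had 0.128, 0 and 0 CPM at 7 days, which is 1 count in all, against 14.8, 12.8 and 15.9 CPM in uncultured cells (adjusted p = 0.0202). SMED30012713, one of the fastest in experiment 3, had 0, 0.309 and 0 CPM, which is 2 counts in all, against 15.9, 12.2 and 14.3 CPM (adjusted p = 0.0439). With 1 library left out, the call of SMED30032032 was lost in 2 of 6 fits and that of SMED30012713 in 6 of 6. The members that rose and are named are described with the opposite movers. The count of members called lower was 12 without any 1 of the 3 flat libraries, and 16, 14 and 13 without uncultured replicate 1, 2 or 3.

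**Figure D2:**
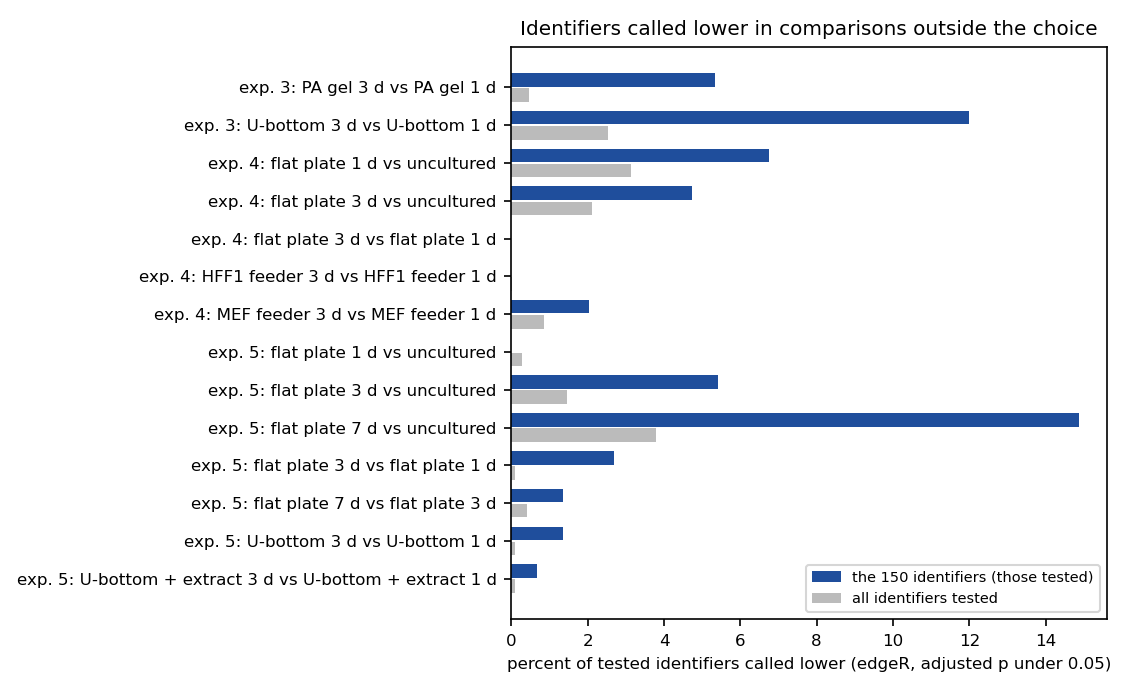
Percent of tested identifiers called lower by edgeR in the 14 comparisons over time, for the 150 identifiers (blue) and for all identifiers tested (grey). The compared groups hold none of the 9 libraries of the choice. The grey bars include identifiers below the 5 CPM that the choice required of members. The share of members was highest for flat plates at 7 days in experiment 5 (14.9%, against 3.79% of all) and was 0 of 148 for flat plates at 1 day there and for flat plates and HFF1 feeders between 1 and 3 days in experiment 4.

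Between days of flat culture in experiment 5, 4 of 148 members fell from 1 to 3 days and 0 rose, where 0.103% of all identifiers were called lower, at a median log2 fold change of -0.58 for members and 0.0 for all. SMED30014371 had 75.1, 87.5 and 37.4 CPM at 3 days, against 184, 271 and 246 CPM at 1 day (-1.80, SE 0.37, adjusted p = 0.0329). SMED30002021 had 0 counts in all 3 libraries at 3 days, against 6.39, 8.66 and 20.8 CPM at 1 day, which makes it at least 101-fold lower with a floor of 3 counts over the group (adjusted p = 0.038). Both calls were lost in 6 of 6 fits with 1 library left out. The count was 0 without flat 1 day replicate 1 or flat 3 days replicate 2, 1 without flat 1 day replicate 2 or 3 or flat 3 days replicate 3, and 2 without flat 3 days replicate 1.

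From 3 to 7 days 2 members fell and 4 rose, where 0.405% of all identifiers were called lower and 2.64% higher. SMED30034512 had 115, 58.8 and 102 CPM at 7 days, against 386, 287 and 304 CPM at 3 days (-1.62, SE 0.26, adjusted p = 0.000107), and SMED30021103 had 0.767, 1.54 and 1.02 CPM, against 32.9, 15.1 and 7.69 CPM (-3.83, SE 1.00, adjusted p = 0.0228). The count of members called lower was 1 without flat 7 days replicate 1 or 3 or flat 3 days replicate 1. The call of SMED30021103 was lost in 4 of 6 such fits and that of SMED30034512 in 0. Without flat 3 days replicate 3 the count called higher was 2.

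The timing by which the members were chosen was seen in few of them in the other experiments, where 120 members (experiment 5) and 105 (experiment 4) reached 5 CPM in uncultured cells. A level within 0.5 of uncultured cells at 1 day of flat culture and at least 1 below at 3 days, both as log2(CPM + 1) differences, was found in 21 of 150 members (14.0%) in experiment 5, against 4.81% of the 11110 identifiers with at least 5 CPM uncultured there. In experiment 4 it was found in 13 members (8.67%), against 5.40% of 10627 identifiers. A level at least 1 below uncultured cells at 3 days in both experiments was found in 34 members (22.7%), against 14.4% of the 10061 identifiers with at least 5 CPM uncultured in both. In experiment 5, 41 members (27.3%) were at least 1 below uncultured cells at 7 days and not yet at 3 days, against 15.9% of the 11110. A further 19 (12.7%) were at least 1 below at 3 days and above that mark at 7 days, against 4.89% of the 11110.

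**Figure D3:**
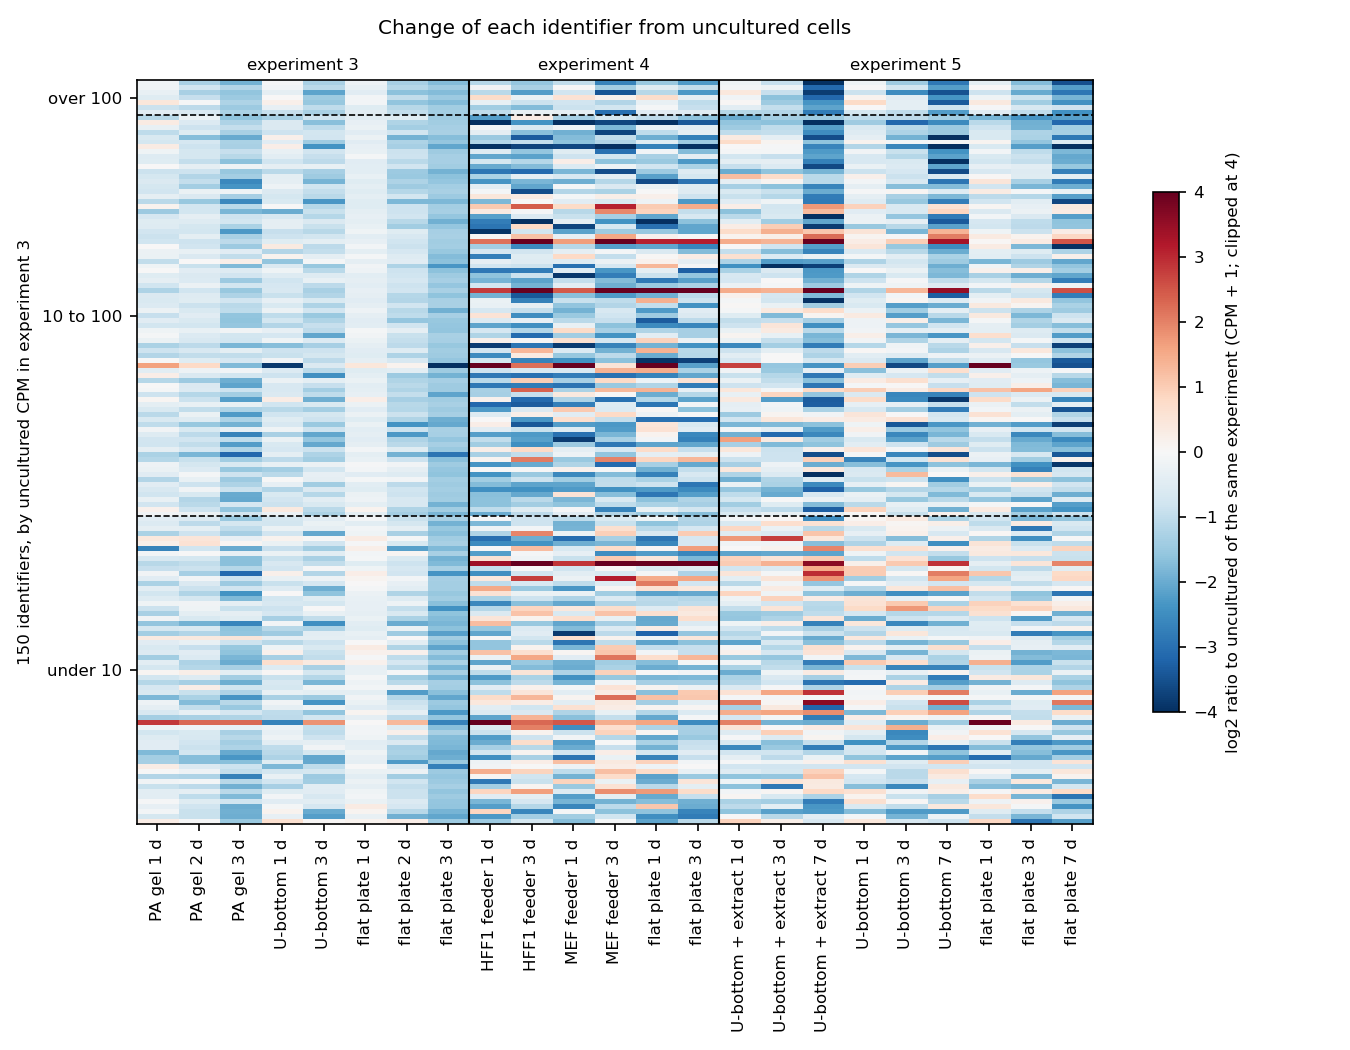
Log2 ratio of group mean CPM + 1 to the uncultured mean of the same experiment for each of the 150 identifiers (rows, ordered by uncultured CPM in experiment 3, with dashed lines at 100 and 10 CPM) in each cultured group (columns); blue is lower, red is higher, clipped at 4. Experiment 3 is pale at 1 day and blue at 3 days, as chosen for flat plates, while experiment 4 is blue for many members at 1 day (51.3% at least 1 below on flat plates, against 40.0% of the 10627 identifiers with at least 5 CPM uncultured) and a few rows are red in experiments 4 and 5.

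In U-bottom plates of experiment 5 the members were lower at 3 days than at 1 day by a median log2 fold change of -0.54, against 0.0 for all identifiers. Of 148 members 2 fell and 1 rose, where 0.0951% of all identifiers were called lower and 0.376% higher. SMED30008911 had 107, 133 and 210 CPM at 3 days, against 437, 494 and 495 CPM at 1 day (-1.67, SE 0.35, adjusted p = 0.025). SMED30034512 had 524, 348 and 334 CPM, against 1091, 871 and 928 CPM (-1.26, SE 0.26, adjusted p = 0.0191). With 1 library left out, SMED30008911 lost its call in 4 of 6 fits and SMED30034512 in 5 of 6. The count called lower was 0 without U-bottom 1 day replicate 2 or 3 or U-bottom 3 days replicate 2. It was 1 without U-bottom 1 day replicate 1, the shallowest library of all, or without U-bottom 3 days replicate 1 or 3.

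With tissue extract in the U-bottom plates the members' median CPM was about the same at both early days. It was 7.06 ± 0.84 at 1 day and 7.04 ± 0.72 at 3 days (SD, n = 3 each). Without extract it was 8.85 ± 0.59 and 6.08 ± 0.23 at these days, and uncultured cells had 9.86 ± 0.35. The members' summed level with extract went from 5172 ± 486 CPM at 1 day to 3681 ± 202 CPM at 3 days. The median log2 fold change from 1 to 3 days was -0.15, against 0.02 for all identifiers, 1 of 148 members fell and 0 rose, and 0.0869% of all identifiers were called lower. That member was SMED30034953, with 43.4, 49.3 and 47.2 CPM at 3 days, against 164, 107 and 125 CPM at 1 day (-1.60, SE 0.31, adjusted p = 0.0143). No member was called without any 1 of the 3-day libraries or 1 day replicate 1 or 3, and 2 were made without 1 day replicate 2. At 7 days with extract the members' median was 3.87 ± 0.12 CPM, and 62.7% of members were at least 1 below uncultured cells, against 69.4% of the identifiers with at least 5 CPM uncultured.

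Extract was also compared with plain U-bottom plates at the same day. The members' median log2 fold changes were -0.16, 0.12 and 0.47 at 1, 3 and 7 days. Those of all identifiers were 0.06, 0.17 and 0.24. Of the members 60.8%, 47.3% and 39.9% lay below 0, against 41.3%, 40.9% and 43.0% of all. At 1 day 0 of 148 members fell with extract and 3 rose (2.03%), where 1.1% of all identifiers were called higher. SMED30008911 had 1107, 1167 and 1194 CPM with extract, against 437, 494 and 495 CPM without it (log2 fold change 1.29, SE 0.35, adjusted p = 0.0448). The uncultured libraries had 818 to 889 CPM. This call was lost in 6 of 6 fits with 1 library left out. SMED30008911 was also called higher with extract at 3 days (1.52, SE 0.35, adjusted p = 0.00987), a call lost in 1 of 6 such fits. It was not called at 7 days (0.27, SE 0.35, adjusted p = 0.741). At 3 days 1 member fell and 4 rose, where 1.83% of all identifiers were called lower and 1.03% higher. SMED30034953 had 43.4, 49.3 and 47.2 CPM with extract, against 118, 91.7 and 110 CPM without it (-1.27, SE 0.31, adjusted p = 0.0142). SMED30023231 had 71.6, 92.1 and 64.9 CPM with extract, against 3.34, 3.05 and 0.798 CPM without it (4.90, SE 1.35, adjusted p = 0.0371). SMED30002377 had 34.6, 38.9 and 44.1 CPM, against 8.20, 1.47 and 0 CPM (3.53, SE 0.99, adjusted p = 0.0433). The calls of SMED30034953, SMED30023231 and SMED30002377 were lost in 5, 6 and 5 of 6 fits with 1 library left out.

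At 7 days 4 members fell with extract and 3 rose, where 5.07% of all identifiers were called lower and 0.939% higher. SMED30026704 had 0.172, 0 and 0.933 CPM with extract, against 5.83, 26.0 and 9.49 CPM without it (-4.54, SE 1.01, adjusted p = 0.00359). SMED30034512 had 28.8, 64.3 and 51.2 CPM, against 88.0, 151 and 202 CPM (-0.99, SE 0.26, adjusted p = 0.0162). With RLE scaling, another way of setting library size, its value was -0.53 and it was not called. SMED30004745 had 43.1, 55.6 and 52.6 CPM with extract, against 32.1, 20.2 and 19.3 CPM without it (1.61, SE 0.49, adjusted p = 0.0426). The calls of SMED30026704, SMED30034512 and SMED30004745 were lost in 1, 4 and 3 of 6 fits with 1 library left out. These day-matched counts depended on single libraries. At 1 day, calls in either direction numbered 3, but 0 without plain replicate 2 or 3 or extract replicate 2, and 1 without plain replicate 1. At 3 days they numbered 5, but 1 without plain replicate 1 or 3 or extract replicate 1 or 3, and 2 without extract replicate 2. At 7 days they numbered 7, but 1 without plain replicate 2, 11 without extract replicate 3, and 0 with the compared groups fitted alone.

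U-bottom and flat plates of experiment 5 were compared at 3 days. There 0 of 148 members were called, where 0.00827% of all identifiers were, with a median log2 fold change of 0.01 for members and 0.0 for all. Before adjustment, p was under 0.05 for 7 members that were lower and 10 that were higher. It was under 0.05 for 2817 of all 24174 identifiers in either direction. DESeq2 called 2 members lower and 4 higher, and 204 of all identifiers lower and 320 higher. With edgeR, 1 member was called higher without flat 3 days replicate 2. The median SE of a member's log2 fold change was 1.26.

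In experiment 4 the members were low on day 1 already, and their median level was no lower on day 3. By library their median was 0.886, 2.85 and 1.34 CPM on flat plates at 1 day and 1.47 to 2.85 CPM at 3 days, against 8.76, 8.65 and 7.67 CPM in uncultured cells. The median log2 fold change from uncultured cells was -1.07 at 1 day and -1.36 at 3 days, while that of all identifiers was 0.30 and 0.21. These medians depend on the scaling. With RLE scaling they were -0.78 and -1.01 for the members and 0.61 and 0.56 for all identifiers. With only the compared groups fitted, the medians at 1 day were -0.91 for the members and -0.11 for all identifiers. Identifiers that were well detected at the start were low as well. On the log2(CPM + 1) scale the members' medians were -1.03 at 1 day and -0.95 at 3 days, against -0.62 and -0.51 for the 10627 identifiers with at least 5 CPM uncultured. Of the members 51.3% and 48.7% were at least 1 lower on that scale, against 40.0% and 35.2% of the 10627.

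Of 148 members tested at 1 day in experiment 4, 10 fell (6.76%) and 5 rose (3.38%), where 3.14% of all identifiers were called lower and 13.5% higher. SMED30002985 had 0.886, 1.60 and 0.145 CPM at 1 day, against 13.7, 40.3 and 42.9 CPM uncultured (-5.05, SE 1.53, adjusted p = 0.0267). SMED30012292 had 0.148, 1.39 and 1.74 CPM, against 47.9, 28.8 and 36.9 CPM (-4.94, SE 1.58, adjusted p = 0.0333). Each call was lost in 5 of 6 fits with 1 library left out. The count of members called lower was between 0 and 3 when any 1 library of either group was left out: 1, 0 and 1 without uncultured replicate 1, 2 or 3, and 2, 1 and 3 without flat replicate 1, 2 or 3. The count called higher was 3 without uncultured replicate 2. Flat replicate 2 stood apart at 1 day, with 4 members at 0 counts, against 26 and 18 in the other flat libraries.

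At 3 days 7 members fell relative to uncultured cells (4.73%) and 4 rose (2.70%), where 2.11% of all identifiers were called lower and 13.7% higher. SMED30008911 had 251, 118 and 136 CPM at 3 days, against 630, 938 and 919 CPM uncultured (-2.37, SE 0.55, adjusted p = 0.00723). SMED30024367 had 1.99, 14.0 and 9.69 CPM, against 395, 135 and 424 CPM (-5.23, SE 1.36, adjusted p = 0.0133). In both, every flat library lay below every uncultured one. SMED30008911 was not called without flat replicate 2, nor SMED30024367 without flat replicate 1. Without any 1 library 3 to 5 members were called lower. The count was 3 without flat replicate 2, and 4 without flat replicate 3 or without uncultured replicate 1, 2 or 3.

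From 1 to 3 days on flat plates in experiment 4, 0 of 148 members were called, where 0.0% of all identifiers were called lower. Before adjustment, p was under 0.05 for 16 members that were lower and 7 that were higher. It was under 0.05 for 2130 of all 26107 identifiers in either direction. DESeq2 called 1 member lower and 1 higher, and 158 of all identifiers lower and 240 higher. The members' median log2 fold change was -0.34, and it was 0.12 without flat 1 day replicate 2. On HFF1 feeders 0 members were called between these days, where 0.0115% of all identifiers were called lower. Before adjustment, 18 members were lower and 17 higher at p under 0.05, as were 4554 of all 26107 identifiers in either direction. DESeq2 called 4 members lower and 11 higher, and 372 of all identifiers lower and 1351 higher. On MEF feeders 3 fell and 0 rose, where 0.862% of all identifiers were called lower. SMED30008911 had 26.5, 96.1 and 109 CPM on MEF feeders at 3 days, against 465, 467 and 526 CPM at 1 day (-3.27, SE 0.57, adjusted p = 0.0166). SMED30028658 had 11.2, 5.20 and 9.69 CPM, against 86.6, 69.7 and 22.5 CPM (-3.41, SE 0.86, adjusted p = 0.0419).

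With 1 library left out, SMED30008911 lost its call on MEF feeders in 3 of 6 fits and SMED30028658 in 5 of 6. The MEF count rested on single libraries and on the scaling. It was 9 without MEF 3 days replicate 3, 0 without MEF 3 days replicate 1 or 2 or MEF 1 day replicate 3, and 1 without MEF 1 day replicate 1 or 2. The median log2 fold change of the members was -0.05 and that of all identifiers 1.44. With RLE scaling these were 0.71 and 2.18, and 8 members were then called higher and 3 lower. The share of all identifiers called with RLE scaling is not given, so these 2 counts are not a result about the members. The same change of scaling moved the HFF1 medians to 0.28 for members and 1.39 for all, against -0.29 and 0.94 with TMM. The sign of the members' median on feeders therefore depends on the scaling. With only the compared groups fitted, the medians on MEF feeders were -0.19 for members and -0.12 for all identifiers.

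At 3 days no member was called between a feeder and flat plates. The HFF1 comparison called 0 of 148 members, where 0.00383% of all identifiers were called, and the MEF comparison called 0, where 0.0% were. At p under 0.05 before adjustment there were 7 members lower and 8 higher on HFF1 and 6 lower and 7 higher on MEF. Of all 26107 identifiers, 1584 on HFF1 and 2263 on MEF had such a p in either direction. On HFF1 DESeq2 called 1 member lower and 2 higher, and 95 of all identifiers lower and 92 higher. On MEF it called 2 members lower and 1 higher, and 155 of all identifiers lower and 326 higher. EdgeR called 1 member lower there without MEF 3 days replicate 3. The members' median SE was 1.36 in both comparisons.

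In AggreWell plates of experiment 2, compared with flat plates at 1 day, members moved both ways. Of 136 members tested 8 fell (5.88%) and 7 rose (5.15%), where 9.15% of all identifiers were called lower and 11.8% higher, so that both shares were below those of all identifiers. SMED30011674 had 33.6, 34.2 and 33.9 CPM in AggreWell plates, against 11.5, 12.3 and 12.1 CPM on flat plates (log2 fold change 1.57, SE 0.34, adjusted p = 0.00649), with little scatter within either group. The 2 members called lower most often over time were lower here as well. SMED30034512 had 413, 261 and 345 CPM, against 708, 575 and 734 CPM (-0.93, SE 0.24, adjusted p = 0.0148), and SMED30008911 had 163, 125 and 187 CPM, against 324, 278 and 388 CPM (-1.0, SE 0.25, adjusted p = 0.0123). The call of SMED30011674 was lost in 0 of 6 fits with 1 library left out, that of SMED30034512 in 2 and that of SMED30008911 in 1. Calls in either direction numbered 15, and 3 to 15 when 1 library was left out, namely 4 without AggreWell replicate 2 and 3, 8 and 5 without flat replicate 1, 2 or 3.

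In experiment 1 none of the 131 members tested was called between aggregates and non-aggregating cells at 2 days, where 0.0% of all identifiers were called. Before adjustment, p was under 0.05 for 0 members that were lower and 4 that were higher. It was under 0.05 for 305 of all 18241 identifiers in either direction. DESeq2 called 0 members, and 0 of all identifiers lower and 2 higher. The members' median log2 fold change was 0.31, against 0.08 for all, and their median by library was 6.04 to 9.97 CPM in aggregates and 5.60 to 8.22 CPM in non-aggregating cells. The groups overlapped.

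Across the 14 comparisons over time that share no library with the choice, 46 of 150 members fell in at least 1, 16 in at least 2 and 9 in at least 3, while 104 fell in none. These are 30.7%, 10.7% and 6.0% of the members, against 17.1%, 5.79% and 2.31% of the 12104 identifiers with at least 5 CPM in uncultured cells of experiment 3. By experiment, 19 members (12.7%) fell in a comparison of experiment 3, 16 (10.7%) in one of experiment 4 and 25 (16.7%) in one of experiment 5, against 4.37%, 8.72% and 8.59% of the 12104, and comparisons within an experiment share libraries. Of the 19 of experiment 3, 10 also fell in experiment 5. The 3 members that fell in all 3 experiments were SMED30034512, SMED30008911 and SMED30024367. Overlaps between experiments were not counted over the 12104, so those of the members are a description only. SMED30034512 fell in 9 of the 14 comparisons and SMED30008911 in 7, the most of any member, and both had a log2 fold change below 0 in all 14. Of the 43 comparisons in which a member was named for its change, 12 kept the call under every alternative tried and 31 lost it with at least 1 library left out. The 12 were those of SMED30027800 on flat plates against uncultured cells at 1 and 3 days (experiment 4) and at 7 days (experiment 5), of SMED30027800 and SMED30034512 from 3 to 7 days on flat plates, of SMED30002365 on flat plates at 1 and 3 days (experiment 4), of SMED30008911 and SMED30002223 on flat plates at 3 and 7 days (experiment 5, in that order), of SMED30021549 and SMED30024367 in U-bottom plates of experiment 3, and of SMED30011674 in AggreWell plates.

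The 7 members with over 100 CPM in uncultured cells had the smallest errors. Their summed level in experiment 5 on flat plates was 2453 ± 58.3 CPM at 1 day, 1072 ± 108 CPM at 3 days and 491 ± 83.4 CPM at 7 days, against 3081 ± 70.7 CPM in uncultured cells (SD, n = 3 each). On these plates 0 of 7 were called at 1 day, 4 fell at 3 days and 6 fell at 7 days. Of all identifiers tested, at any level, 0.281%, 1.46% and 3.79% were called lower. Other identifiers as abundant as the 7 were not counted apart, and smaller errors make a call easier to reach. In U-bottom plates with extract their sum was 3101 ± 262 CPM at 1 day, 1739 ± 135 CPM at 3 days and 269 ± 47.4 CPM at 7 days. In U-bottom plates without extract it was 2663 ± 193, 1288 ± 151 and 480 ± 85.7 CPM at the same days. In experiment 4 their sum on flat plates was 1649 ± 161 CPM at 1 day and 921 ± 373 CPM at 3 days, against 2825 ± 117 CPM in uncultured cells. At 1 day 0 of 7 were called there and 4 lay below 0. All 7 log2 fold changes from 1 to 3 days were below 0 on flat plates and both feeders of experiment 4. They were also below 0 on flat plates and both kinds of U-bottom plate of experiment 5, and on the gel and U-bottom plate of experiment 3. Of all identifiers tested, between 36.3% (MEF feeders) and 54.7% (gel) lay below 0 in these comparisons. The median over the 7 ran from -2.0 on MEF feeders to -0.74 in U-bottom plates of experiment 5.

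**Figure D4:**
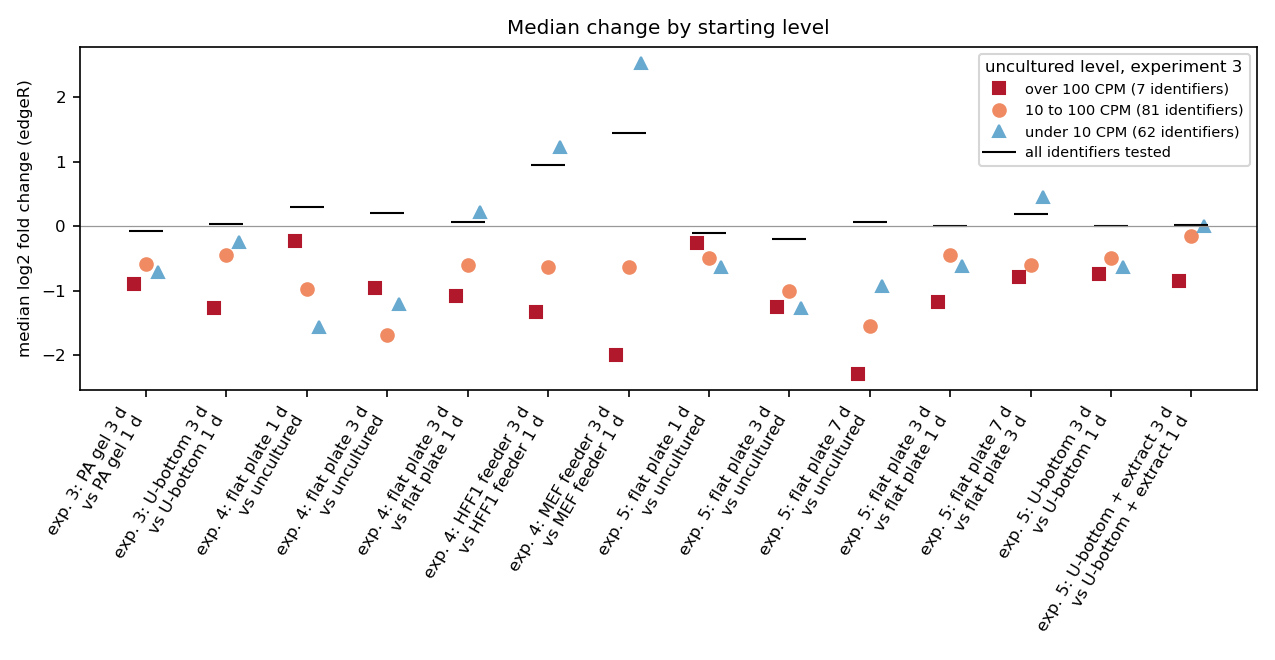
Median log2 fold change (edgeR) of the members by uncultured level in experiment 3 (squares, over 100 CPM; circles, 10 to 100 CPM; triangles, under 10 CPM) and of all identifiers tested (black dashes) in the 14 comparisons over time. The squares lie below 0 in all 14 comparisons, at -2.29 for flat plates at 7 days in experiment 5, while the triangles lie above 0 between 1 and 3 days in experiment 4.

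The most abundant member, SMED30034512, is given here over time in experiments 5 and 4. In experiment 5 it had 924, 776 and 785 CPM at 1 day on flat plates, 386, 287 and 304 CPM at 3 days and 115, 58.8 and 102 CPM at 7 days, against 1250, 1005 and 971 CPM in uncultured cells. The log2 fold change from uncultured cells was -0.44 at 1 day (SE 0.26, adjusted p = 0.535), -1.77 at 3 days (SE 0.26) and -3.39 at 7 days (SE 0.28). In experiment 4 it had 345, 401 and 416 CPM at 1 day and 391, 95.4 and 181 CPM at 3 days, against 1119, 1027 and 1098 CPM in uncultured cells. There the change was -1.24 at 1 day (SE 0.52, adjusted p = 0.0974) and -2.33 at 3 days (SE 0.54, adjusted p = 0.00739), where the 3-day call was lost without flat 3 days replicate 2. SMED30004367, the second most abundant, was at its uncultured level at 1 day in experiment 5, with 527, 558 and 593 CPM, against 524, 551 and 593 CPM. It had 342, 181 and 199 CPM at 3 days and 120, 99.3 and 141 CPM at 7 days, below every uncultured library at both days.

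**Figure D5:**
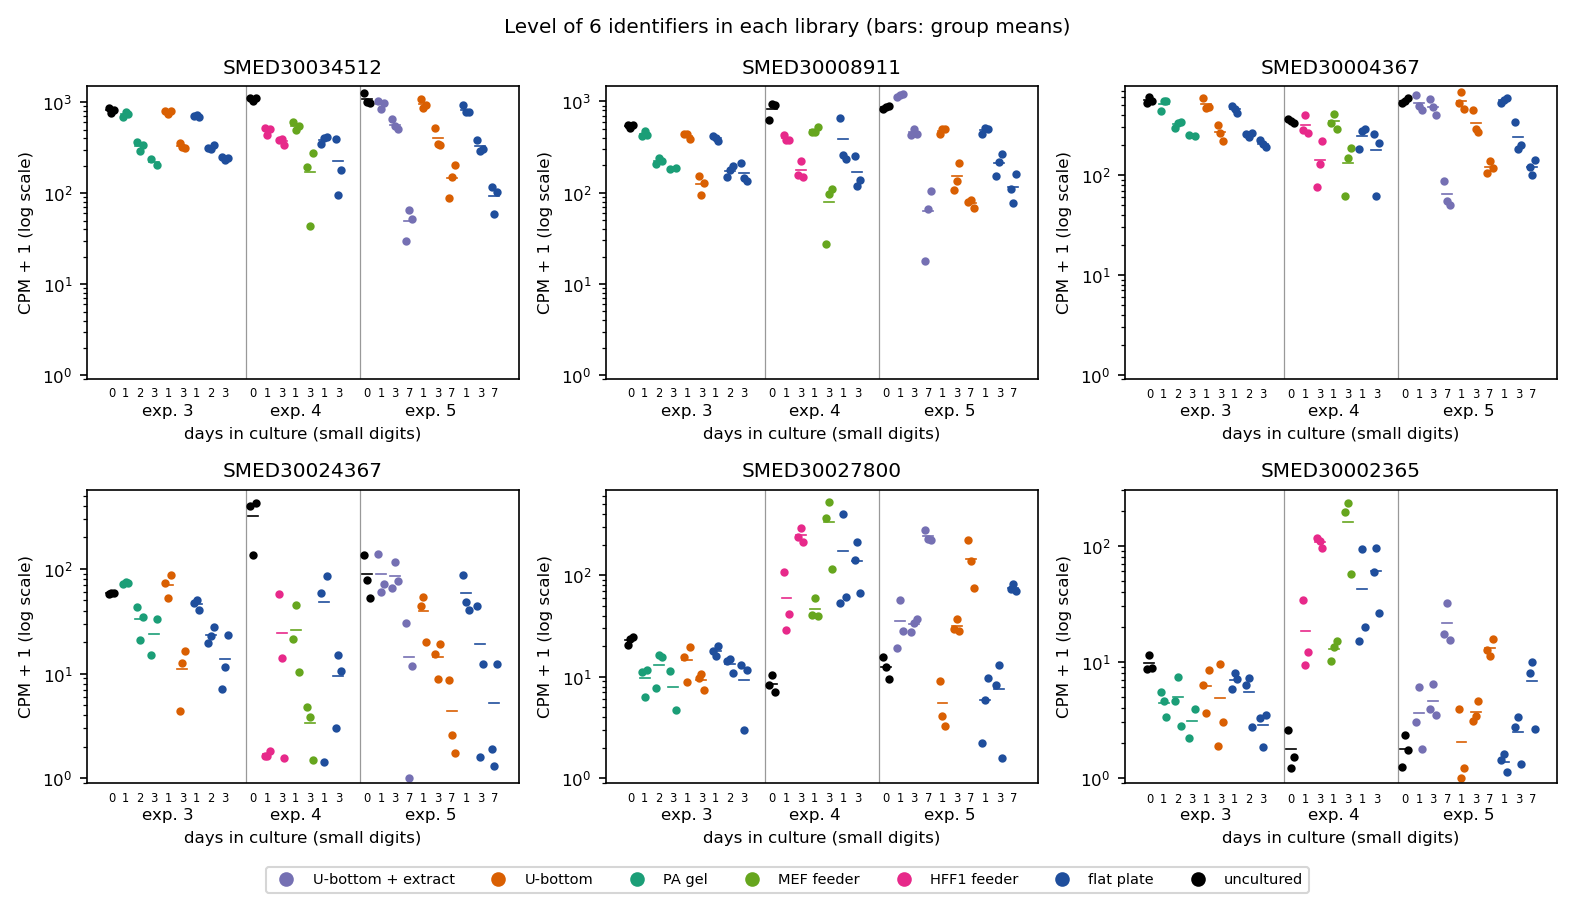
CPM + 1 (log axis) of 6 members in each library (points; bars are group means) of experiments 3, 4 and 5, with days in culture as small digits, uncultured at 0, and colours for the culture. SMED30034512, SMED30008911 and SMED30004367 are lower at 3 or 7 days than at 1 day in nearly every culture, SMED30024367 spreads widely in experiment 4, and SMED30027800 and SMED30002365 lie above their uncultured level in experiment 4, reaching 520 and 231 CPM on MEF feeders at 3 days.

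Some members went the other way outside experiment 3. SMED30027800 and SMED30002365 had the highest mean log2 fold change over the 14 comparisons among members tested in all of them. SMED30027800 had 51.9, 399 and 59.8 CPM at 1 day and 138, 209 and 66.3 CPM at 3 days on flat plates of experiment 4, against 7.25, 9.31 and 6.11 CPM in uncultured cells (log2 fold change 4.50 at 1 day, SE 0.74, adjusted p = 0.000327). In experiment 5 it had 7.36, 12.0 and 0.6 CPM at 3 days on flat plates and 72.6, 80.4 and 68.6 CPM at 7 days (3.71 from 3 to 7 days, SE 0.66, adjusted p = 0.000381), against 14.6, 11.5 and 8.49 CPM in uncultured cells. It also rose from 1 to 3 days in U-bottom plates (3.00, SE 0.68, adjusted p = 0.0379) and with extract at 1 day, with 18.3, 56.4 and 27.2 CPM, against 8.01, 3.08 and 2.31 CPM without it (3.19, SE 0.68, adjusted p = 0.008). Each of these 2 U-bottom calls was lost with 1 library left out, in 4 and in 3 of 6 fits.

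SMED30002365 had 14.2, 92.1 and 18.9 CPM at 1 day on flat plates of experiment 4, against 1.57, 0.204 and 0.522 CPM in uncultured cells (5.82, SE 0.99, adjusted p = 0.000505). In the uncultured cells of experiment 3 it had 7.69, 10.4 and 7.9 CPM, so its starting level differed between the tables, which were made separately. SMED30002223 had 97.8, 104 and 79.7 CPM at 7 days on flat plates of experiment 5, against 13.9, 16.5 and 16.2 CPM in uncultured cells (2.76, SE 0.42, adjusted p = 1.05e-05). In flat replicate 2 at 1 day of experiment 4, the library that stood apart, SMED30002223 had 425 CPM, against 71.9 and 84.2 CPM in the other libraries of the group, and SMED30027800 and SMED30002365 were highest in that library too. At 1 day on flat plates of experiment 4, 5 members were called higher with that library, and the same 5 without it. In all, 7 members (4.67%) rose in at least 1 of the 14 comparisons, against 11.0% of the 12104 identifiers with at least 5 CPM in uncultured cells of experiment 3.

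The least abundant members carried the largest errors. For the 62 with under 10 CPM uncultured in experiment 3, the median SE of a log2 fold change was 0.79 on the gel and 0.64 in U-bottom plates of experiment 3, and between 1.39 and 1.5 in experiment 4 and between 1.55 and 1.68 in experiment 5 over the comparisons across time. Of these 62 no more than 4 fell in any of the 14 comparisons. For the 81 with 10 to 100 CPM the number that fell reached 15 of 81 on flat plates at 7 days of experiment 5, at a median log2 fold change of -1.55, and 8 of 81 in U-bottom plates of experiment 3. Of all identifiers tested, at any level, 3.79% and 2.53% were called lower in the same comparisons, and other identifiers of 10 to 100 CPM were not counted apart. The part of depth in the difference between members of low and high level was not tested.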

How the data were processed

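Per the labels, libraries were made by template-switching reverse transcription, PCR and Tn5 tagmentation. The submitters' processing notes name kallisto 0.46.2 and R 4.0.5, with no role or order. For experiments 4 and 5 the authors deposited whole-number counts per identifier. For experiments 1, 2 and 3 the authors deposited estimated counts with decimals, which were rounded to whole numbers for testing. How either table was made beyond this is not stated.

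Every experiment was fitted separately, with all its groups in 1 model, by edgeR 4.0.16 in R 4.3.3 (TMM scaling, filterByExpr, quasi-likelihood F test, Benjamini-Hochberg adjustment over all identifiers tested, threshold 0.05). CPM leaves out 4 abundant identifiers, and levels are compared as log2(CPM + 1). Only the 22 comparisons whose compared groups hold no library of the choice of members were tested. In experiment 3 the 9 libraries of the choice were still part of the fit. They entered its filter, scaling and estimate of the spread, so the p-values there are not fully independent of the choice. The members and lists were chosen with earlier results of these data known. Named identifiers were the members with the highest level, the most negative day 3 value, the extreme day 2 values, the most lower calls or the highest mean change, and at most 2 per direction and comparison with the largest change among called members of at least 5 CPM whose libraries did not overlap. The fitting code was also run on simulated counts with known changes and a spread fixed in advance. That spread was not taken from these libraries, so the run does not show how the fits perform on them. Alternatives were DESeq2 1.42.0, RLE scaling, no filter, fitting only the compared groups, a replicate term, leaving out the 4 identifiers, and leaving out each library. Replicates of a group differed by more than sampling noise (chi-square per degree of freedom at least 7.14).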

Additional observations from a re-analysis of the deposited data

Results flagged for a closer look

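SMED30010027, the last identifier kept, differed in opposite directions after 1 day of flat culture in experiments 4 and 5, with every library on one side. In experiment 4 it had 0.148, 0.974 and 0 CPM at 1 day, against 4.6, 3.46 and 2.35 CPM in uncultured cells, a log2(CPM + 1) difference of -1.70. In experiment 5 it had 22.5, 17.8 and 11.3 CPM at 1 day, against 2.45, 6.42 and 8.49 CPM in uncultured cells, a difference of 1.42. Neither change was called by edgeR (adjusted p = 0.142 in experiment 4 and 0.824 in experiment 5). The difference between the experiments was -3.12 and was not tested.

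SMED30000370 also went opposite ways, between 1 and 3 days of flat culture. In experiment 4 it had 34.9, 4.75 and 4.02 CPM at 3 days, against 0.295, 3.34 and 0.58 CPM at 1 day, a log2(CPM + 1) difference of 2.69. In experiment 5 it had 0, 1.77 and 0 CPM at 3 days, against 3.5, 7.05 and 1.96 CPM at 1 day, a difference of -1.70. Neither of these changes was called by edgeR (adjusted p = 0.52 in experiment 4 and 0.329 in experiment 5). The difference between the experiments was 4.39 and was not tested.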

How the results depend on the processing

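Counts of members called lower over time (in either direction between conditions) depended on the fit, and the cause was not tested. The number of all identifiers called also changed with the fit, and its share is not given beside the counts below. For flat at 3 and 7 days in experiment 5, edgeR called 353 and 916 of all identifiers lower, and DESeq2 1354 and 1751. A changed count of members is therefore not a result about the members. The choice itself kept 78 of 150 members with TMM-scaled CPM, 78 with group medians and 141 with a pseudocount of 0.5. Without the low-count filter the counts were 16 on the gel, 1 on MEF feeders, and in experiment 5 1 for flat at 1 day, 7 for flat from 1 to 3 days, 8 from 3 to 7 days, 5 in U-bottom plates, 4 with extract and 5 for U-bottom against flat. RLE scaling gave 5 for flat at 1 day in experiment 4. Without the 4 abundant identifiers the counts were 4 there, 1 on MEF feeders and 2 with extract. With only the compared groups fitted they were 20 on the gel and 7 in U-bottom plates of experiment 3. In experiment 4 they were then 17 for flat at 3 days and 1 on MEF feeders. In experiment 5 they were 6, 13 and 39 for flat at 1, 3 and 7 days, 1 for flat from 1 to 3 days, 2 with extract over time, and 5, 9 and 0 for extract against none at 1, 3 and 7 days. DESeq2 called 16 on the gel. In experiment 4 it called 19 and 13 for flat at 1 and 3 days, 1 for flat from 1 to 3 days, 4 on HFF1, 8 on MEF, 3 for HFF1 against flat and 3 for MEF against flat. In experiment 5 DESeq2 called 3, 20 and 38 for flat at 1, 3 and 7 days, 8 from 1 to 3 days, 7 from 3 to 7 days, 6 in U-bottom plates, 4 with extract, 6 for U-bottom against flat, and 6, 15 and 22 for extract against none at 1, 3 and 7 days.

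Leaving out 1 library gave 1 to 6 on the gel, 13 to 23 in U-bottom plates of experiment 3, and 3 to 15 in experiment 2. In experiment 4 it gave 0 to 3 and 3 to 5 for flat at 1 and 3 days, 0 to 9 on MEF and 0 to 1 for MEF against flat. In experiment 5 it gave 0 to 1, 5 to 8 and 12 to 16 for flat at 1, 3 and 7 days, 0 to 2 from 1 to 3 days, 1 to 2 from 3 to 7 days, 0 to 1 in U-bottom plates, 0 to 2 with extract, 0 to 1 for U-bottom against flat, and 0 to 3, 1 to 5 and 1 to 11 for extract against none. A lone library left in the gel group was assumed to vary like the other groups. The choice kept 100 to 119 members.

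Replicate numbers were not treated as pairs. Correlations of same-numbered deviations ran from -0.28 to 0.72, and of the comparisons with 3 pairs 0 had all of them above 0.1. In experiment 1 they were 0.72, 0.39 and -0.03, so pairing is not settled there. The gel has only 2 pairs, at 0.16 and 0.18. With a replicate block the counts were 6 for flat at 1 day in experiment 4 and 7 in experiment 2, and the other counts were within 1.5 times. Of 43 tests of named members, 12 were called under every alternative, 31 lost their call under at least 1 (each of them with a library left out) and 0 changed sign.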
